A study of Homo sapiens with 6 samples.

Results

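The mitochondrial ribosomal protein genes examined here were the 78 protein-coding genes of GENCODE release 29, among 19940, whose symbol is MRPL or MRPS followed by digits. Of these, 49 carry MRPL symbols, given to proteins of the large subunit, and 29 carry MRPS symbols, given to the small subunit. RNA contacts were measured in HEK293T cells, an established human embryonic kidney line, by eCLIP, which sequences RNA fragments recovered with an immunoprecipitated protein and sets them against an input library. The series held 6 libraries, 2 for SF3B4 (anti-SF3B4 antibody), 2 for G4PID (anti-HA antibody) and 2 of input with no antibody. G4PID is an artificial biotin ligase targeted to G-quadruplexes. The labels describe plasmid transfection with pIRES2-G4PID-EGFP or pIRES2-miniTurboID-EGFP, 24 h of culture and 30 min with 500 µM biotin in 1 text shared by every sample, so which plasmid the SF3B4 and input cells received is not stated. The deposited data were 1 peak list per antibody, 3660 peaks for SF3B4 and 270 for G4PID, with no value per library. Replicate spread and read depth are therefore unknown, and the comparisons below are counts without a test.

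Mitochondrial ribosomes translate the few messenger RNAs of the mitochondrial genome, which encode core subunits of the respiratory chain. All of their proteins are encoded in the nucleus, and their transcripts are spliced there like other messenger RNAs before the proteins are made in the cytosol and imported. SF3B4 belongs to the SF3b part of the U2 snRNP, the particle that engages the branch point upstream of the 3' splice site, or acceptor, of an intron.

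An SF3B4 peak was found in 7 of the 78 genes (8.97%, 95% Wilson interval 4.42 to 17.4%). Over all protein-coding genes the share was 9.36% (1867 of 19940), at which 78 genes would hold 7.30, so the count is near the background. A gene was credited with a peak when the peak's midpoint fell inside it on the same strand. Under MRPL symbols the genes with a peak were MRPL4, MRPL9, MRPL12 and MRPL38 (4 of 49, 8.16%), and under MRPS symbols they were MRPS6, MRPS15 and MRPS25 (3 of 29, 10.3%). No mitochondrial ribosomal protein gene held a G4PID peak (0 of 78). With 0.507% of protein-coding genes in the G4PID list (101 of 19940), 78 genes at that share would hold 0.395. The lists contain only peaks past the authors' thresholds, so a gene without a peak is not shown to be unbound. Genes silent in these cells are part of the background, and RNA amount was not measured.

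**Figure D1:**
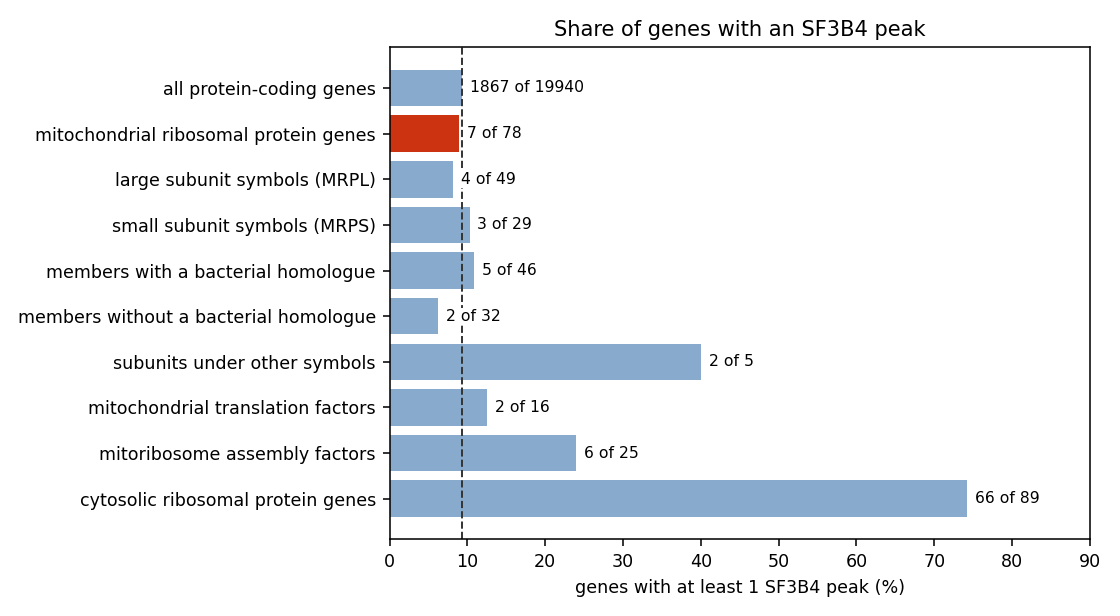
Share of genes with at least 1 SF3B4 peak (x axis, percent) in each gene list (y axis), with counts beside the bars and a dashed line at the 9.36% of all protein-coding genes. The 78 mitochondrial ribosomal protein genes (red) sit at 8.97%, close to the dashed line, and the cytosolic ribosomal protein genes at 74.2%.

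Of the 10 SF3B4 peaks in these genes, 8 had fold values below the median of the whole list and 2 above it, and 4 of the 10 came from MRPL38. The enrichment that the authors give each peak (taken here as a log2 fold against input) had a median of 3.48 over the 10 peaks and of 3.91 over the 3480 peaks in protein-coding genes. A value of 4 or more was reached by 1 of the 10 peaks (10.0%), against 46.3% of peaks in protein-coding genes. MRPL4 held that peak, at 4.84. It ranked near 550 of 3660, the exact place being arbitrary because 34 peaks, its own included, carried the same fold and p. The other 9 lay between 3.17 and 3.94, and the median of the whole list was 3.93. Each pair of fold and p was carried by 2 to 46 peaks of the list, the member's own included, so the fold values come in steps. Counting only peaks with a log2 fold of at least 4 left MRPL4 alone (1 of 78, 1.28%, against 5.57% of protein-coding genes). Counting only those with a −log10 p of at least 10 left MRPL38, MRPS6 and MRPS25 (3 of 78, 3.85%, against 4.31%).

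**Figure D2:**
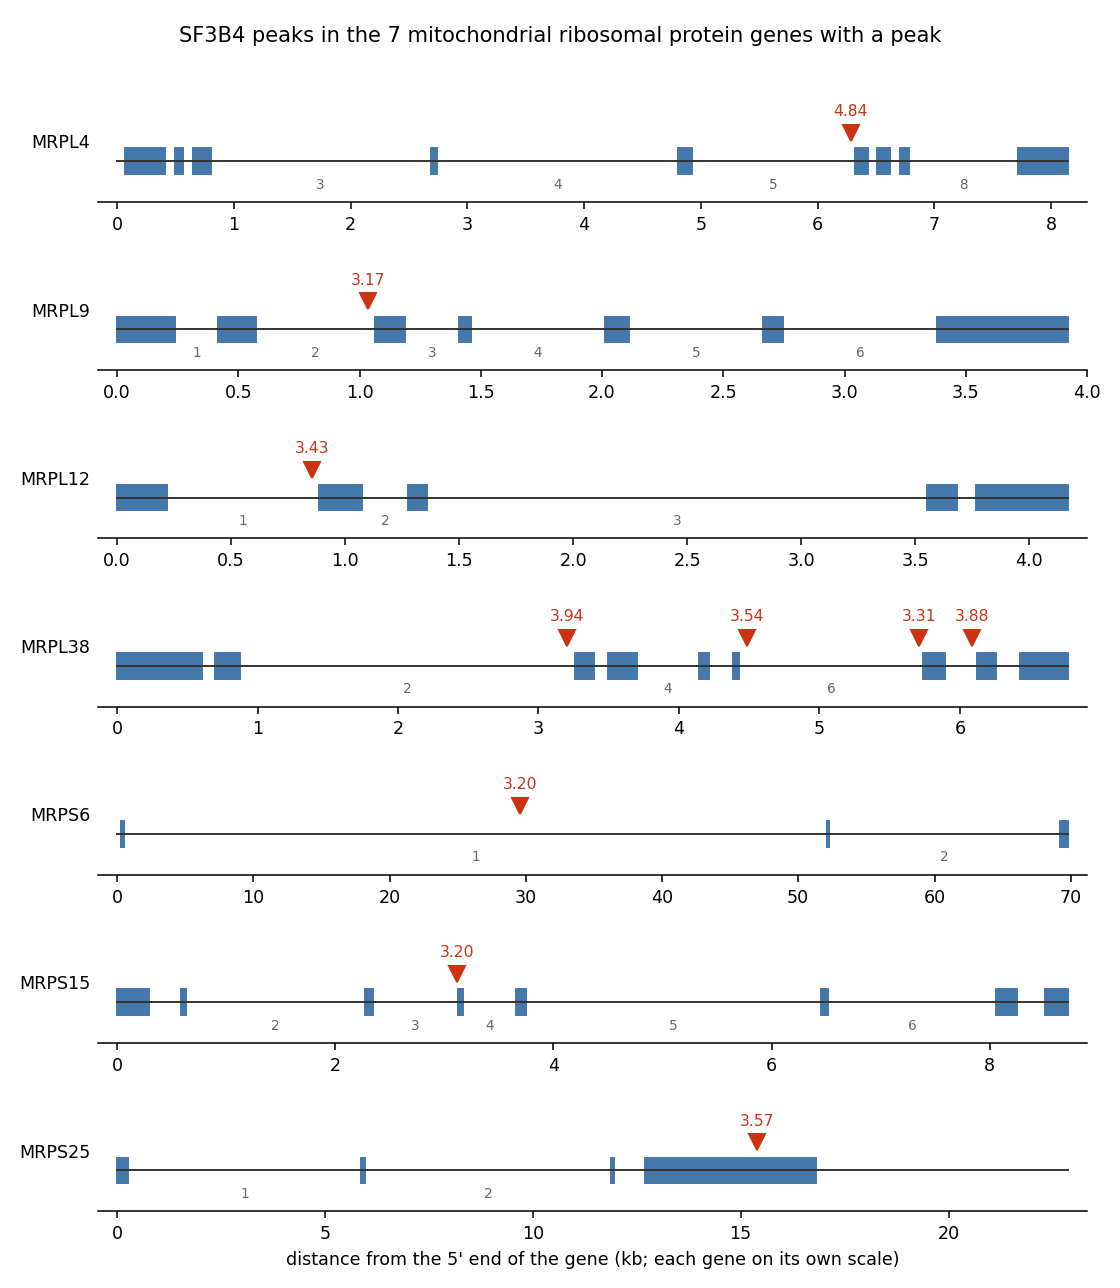
The 7 genes with an SF3B4 peak, each drawn to its own scale from its 5' end (x axis, kb). Boxes are exons of the reference transcript, small numbers count the wider introns, and triangles mark peak midpoints with the authors' log2 fold. MRPL38 carries 4 peaks and the other genes 1 each, most of them immediately before an exon.

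MRPL38 was the only one of the 7 genes with more than 1 peak. It encodes a protein of the central protuberance of the large subunit with no bacterial counterpart. Its gene lies on the minus strand of chromosome 17, at 75898643 to 75905413, and has 8 introns in the reference transcript. The 4 peaks occupied introns 2, 6 and 7, with 2 of them at opposite ends of intron 6. Among all protein-coding genes with an SF3B4 peak, 12.9% had 4 or more (240 of 1867).

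The peak of MRPL38 intron 2, an intron of 2385 nt and the longest of the gene, spanned 75902179 to 75902245 with a log2 fold of 3.94 and a −log10 p of 10.6. Its midpoint lay 58 nt upstream of the exon, counting the last intron base as 1, and its downstream edge stopped 25 nt short of the exon. Intron 7, of 221 nt, held the peak nearest to the 3' end of the gene, at 75899301 to 75899346 (log2 fold 3.88, −log10 p 6.6), with its midpoint 30 nt upstream of the exon. In intron 6, of 1307 nt, the peak at 75899661 to 75899747 had the highest −log10 p of the 4 (16.7) with the lowest log2 fold (3.31). Its midpoint was again 30 nt from the exon, and the peak ran across the splice site into the exon.

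The second peak of intron 6 stood apart from the others. It spanned 75900898 to 75900957 (log2 fold 3.54, −log10 p 7.5), with its midpoint 54 nt after the 5' splice site, or donor, and 1254 nt before the acceptor. Peaks within 100 nt of the donor and more than 100 nt from the acceptor made up 1.52% of SF3B4 peaks in introns of protein-coding genes (49 of 3226), and this was the 1 such peak of 9 in the 78 genes. All 4 MRPL38 peaks lay within exons of annotated retained-intron transcripts of the gene. A second protein-coding model, AC087289.3, covers the same 4 positions on the same strand, so the peaks are counted for it as well.

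Those retained-intron transcripts supply the sequence of the intron ends with a peak, which are shown because the SF3B4 peaks lie in them. The list gives no position finer than a peak, so the bases contacted are not known. All are written 5' to 3' in the sense of the RNA (minus strand of hg38, GENCODE transcripts). Capitals mark bases inside a deposited peak. The 4 acceptor ends comprise 95 intron bases followed by 15 exon bases, and intron 4, which had no peak, is given for comparison.
MRPL38 intron 2 acceptor, chr17:75902140-75902249: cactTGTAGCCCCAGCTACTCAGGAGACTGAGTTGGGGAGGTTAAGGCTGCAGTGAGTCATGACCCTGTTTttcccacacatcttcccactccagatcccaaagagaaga
MRPL38 intron 6 acceptor, chr17:75899660-75899769: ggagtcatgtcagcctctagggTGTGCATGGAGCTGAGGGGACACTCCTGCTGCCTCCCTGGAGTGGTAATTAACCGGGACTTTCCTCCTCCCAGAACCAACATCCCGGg
MRPL38 intron 7 acceptor, chr17:75899280-75899389: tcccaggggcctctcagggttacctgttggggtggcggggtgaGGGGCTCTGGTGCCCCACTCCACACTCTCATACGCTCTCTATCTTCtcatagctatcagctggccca
MRPL38 intron 4 acceptor, chr17:75901259-75901368: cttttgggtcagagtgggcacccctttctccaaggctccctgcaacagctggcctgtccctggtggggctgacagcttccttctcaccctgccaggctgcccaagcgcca
The donor end of intron 6 is written with 15 exon bases first and then 95 intron bases.
MRPL38 intron 6 donor, chr17:75900887-75900996: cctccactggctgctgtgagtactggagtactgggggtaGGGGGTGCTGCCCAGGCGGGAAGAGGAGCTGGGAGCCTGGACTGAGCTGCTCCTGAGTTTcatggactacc

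In introns 2 and 7 the peak ended before the splice site, leaving the last intron bases outside it, whereas in intron 6 it covered them. Pyrimidines made up 80.8% of the bases 5 to 30 nt upstream of the exon in introns 2 and 7, 61.5% in intron 6 and 65.4% in intron 4, which had no peak. Over 26651 searchable intron ends of protein-coding genes the median was 69.2%, and over the 71 searchable ends among the 334 introns of the 78 genes it was also 69.2%. The letters CTNAC, which resemble the branch point of many human introns, were searched on the sense strand 15 to 50 nt upstream of the exon. They were absent from the 3 MRPL38 ends with a peak and present in intron 4 with the A at 24 nt. The ends with a peak in MRPL4, MRPL9, MRPL12 and MRPS15 were not covered by transcripts and could not be searched. They stood in 23 of the 71 searchable member ends (32.4%) and in 23.4% of all searchable ends. Over all protein-coding genes they stood in 25.7% of searchable ends with a peak and in 23.3% of those without. Most ends with a peak thus lack these letters, so their absence from 3 ends does not show that a branch point is missing. Looser forms of the letters were not searched. Of the 48 stretches of 20 nt within the intron 2 peak, 13 also occurred in transcripts of other genes, the most widespread in 41 genes. None of the stretches in the other 3 MRPL38 peaks did. Only the sense strand of annotated transcripts, without those of AC087289.3, was searched. Copies elsewhere in the genome would have been missed. The handling of reads that match several places is not stated in the labels or notes.

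MRPL4 encodes the counterpart of bacterial ribosomal protein L4, which reaches into the exit tunnel of the large subunit. Its single peak lay in intron 5 of 8, on the plus strand of chromosome 19, from 10258166 to 10258202. The log2 fold of 4.84 was the highest of the 10 peaks, with a −log10 p of 7.6. The midpoint was 38 nt upstream of the exon, and the intron, of 1396 nt, was the third longest of the gene, whose introns ran from 84 to 2067 nt.

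MRPL12 encodes the counterpart of the bacterial L7/L12 stalk protein, which contacts translation factors. The peak lay in its first intron, of 668 nt, from 81704199 to 81704223 on chromosome 17 (plus strand), with a log2 fold of 3.43 and a −log10 p of 6.7. At 25 nt it was the narrowest of the 10 peaks, and its midpoint was 33 nt upstream of the exon. The protein-coding model AC139530.2 shares this position.

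MRPL9, the counterpart of bacterial L9, had its peak in intron 2 of 6, at 151762507 to 151762552 on the minus strand of chromosome 1, with the midpoint 30 nt upstream of the exon. The log2 fold of 3.17 was the lowest of the 10 and the −log10 p was 7.6. The intron is 489 nt long, within a range of 180 to 634 nt in that gene.

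Among the small-subunit genes, only MRPS15 had its peak at an acceptor of the reference transcript. MRPS15 is the counterpart of bacterial S15, which binds the small ribosomal RNA. The peak occupied 36461288 to 36461358 on the minus strand of chromosome 1, in intron 3 of 7 (775 nt), and had a log2 fold of 3.20 and the lowest −log10 p of the 10, 5.4. Its midpoint lay 11 nt upstream of the exon, the closest of the intronic peaks, and it extended into the exon.

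The peaks of MRPS25 and MRPS6 lay away from the acceptors of their reference transcripts but beside acceptors of other annotated transcripts. MRPS25, a small-subunit protein with no bacterial counterpart, had a peak at 15049867 to 15050001 on the minus strand of chromosome 3 (log2 fold 3.57, −log10 p 16.7). In the reference transcript this is the noncoding part of the last exon, exon 4. An acceptor used by 2 of the 7 annotated transcripts, 1 of them in the basic set, fell inside the peak, which reached from 66 nt upstream of that site to exon base 69 and had its midpoint at exon base 2.

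MRPS6 encodes the counterpart of bacterial S6, a protein of the small-subunit platform. Its peak, from 34102735 to 34102861 on chromosome 21 (plus strand, log2 fold 3.20, −log10 p 10.7), was 22543 nt from the acceptor of the first intron of the reference transcript, an intron of 51595 nt. The midpoint lay 37 nt upstream of an acceptor used by 2 of the 5 annotated MRPS6 transcripts, neither in the basic set. The same position is part of the last exon of SLC5A3, the gene of a sodium and myo-inositol cotransporter on the same strand, 5446 nt beyond the end of its coding sequence. A noncoding gene, AP000317.2, also spans it on that strand. To which of these RNAs the reads belonged cannot be told apart from the list. With each peak assigned to 1 gene, exon before intron, this peak went to SLC5A3 and 6 of 78 genes kept a peak (7.69%, against 8.88% of protein-coding genes).

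**Figure D3:**
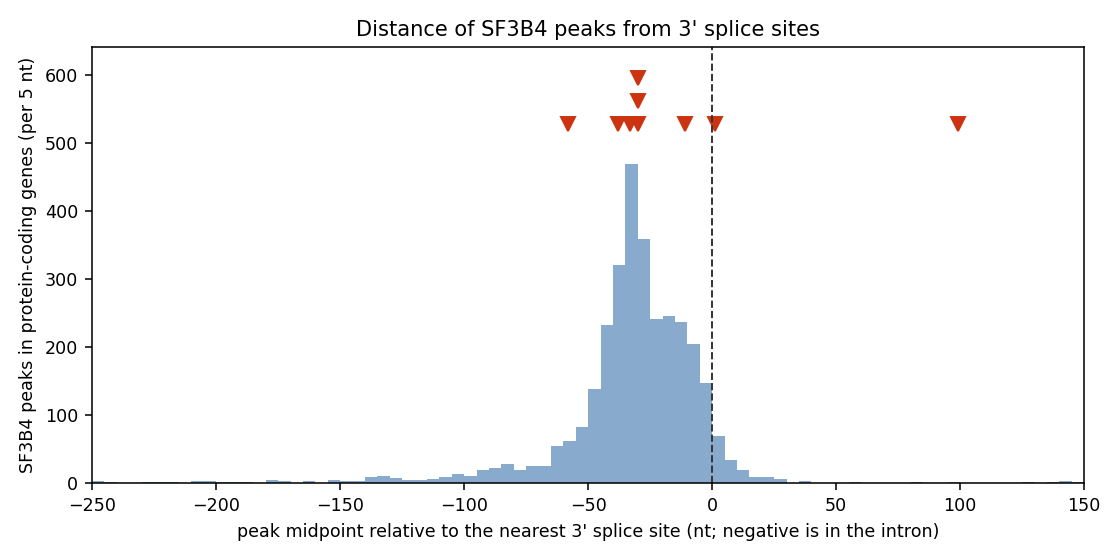
Midpoints of SF3B4 peaks relative to the nearest 3' splice site of the gene's basic transcripts (x axis, nt, negative in the intron). Bars count peaks in all protein-coding genes per 5 nt, and triangles above them mark 9 of the 10 peaks in mitochondrial ribosomal protein genes, the MRPS6 peak lying outside the range. Of the triangles, 7 stand 58 to 11 nt upstream of the splice site.

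Positions relative to the splice site were set beside those of all SF3B4 peaks in protein-coding genes, without a test. Of the 10 peaks, 7 (70.0%, 95% Wilson interval 39.7 to 89.2%) were centred 10 to 60 nt before the closest acceptor of the basic transcripts. Over the 3480 peaks in protein-coding genes 69.6% were (2423). The interval treats peaks as independent, although 4 of the 10 came from MRPL38. Within 1000 nt of an acceptor the median distance was 30 nt upstream for the 9 peaks in these genes and 31 nt for all. With the acceptors of every annotated transcript the counts were 8 of 10 (80.0%) and 71.9%, the added one being the MRPS6 peak.

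The 78 genes had 334 introns in their reference transcripts, and 8 of these held the midpoint of a peak (2.40%), against 1.73% of the 187809 introns of all protein-coding genes. A peak 10 to 60 nt upstream of the acceptor was found at 7 introns (2.10%, against 1.33%). In order along the gene, the introns with a peak were the first of MRPL12 and MRPS6, the second of MRPL9 and MRPL38, the third of MRPS15, the fifth of MRPL4, and introns 6 and 7 of MRPL38. First introns held a peak in 2 of 71 cases (2.82%), internal introns in 6 of 185 (3.24%) and last introns in 0 of 71. The only intron of a gene held one in 0 of 7 cases. Over all protein-coding genes the shares were 1.26%, 1.87%, 1.08% and 0.37%, in that order. The other 30 introns of the 7 genes had none. With so few introns, these counts do not show that any place was favoured or spared, and no test was made.

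Introns with a peak ran from 221 nt in MRPL38 to 51595 nt in MRPS6, with a median of 1041 nt, and those without one had a median of 1634 nt. Over all protein-coding genes the medians were 618 and 1575 nt. Of the 45 introns under 200 nt in these genes 0 held a peak, while 3.03% of such introns did over all protein-coding genes. From 200 to under 1000 nt there were 4 of 83 (4.82%, against 2.57% overall), and from 1000 to under 5000 nt 3 of 150 (2.0%, against 1.31%). From 5000 nt up there was 1 of 56 (1.79%, against 0.722%), the MRPS6 intron, whose peak also lies in SLC5A3. With so few introns, these counts do not show that any length class was favoured or spared, and no test was made.

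**Figure D4:**
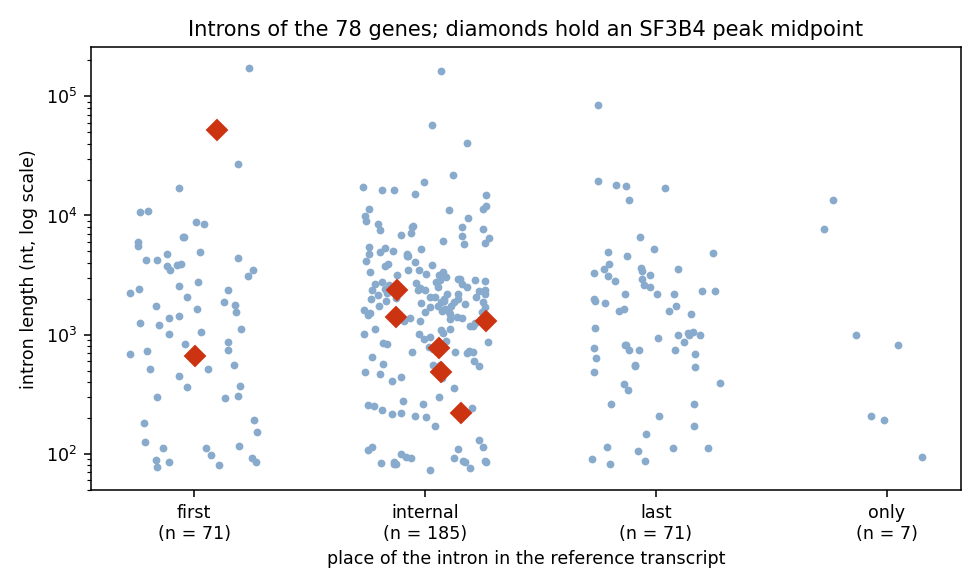
Length of each of the 334 introns of the 78 genes (y axis, nt, log scale) by its place in the reference transcript (x axis, with the number of introns). Red diamonds are the 8 introns that hold the midpoint of an SF3B4 peak, 2 first and 6 internal, and circles are introns without one.

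The genes themselves were short and had few introns. The median was 4 introns and 11937 nt, against 7 introns and 27154 nt over all protein-coding genes, and the 7 genes with a peak had a median of 6 introns. Every one of the 78 had at least 1 intron. Among genes with 1 to 4 introns, 3 of 46 members had a peak (6.52%, against 2.88% of protein-coding genes with that number), and among genes with 5 to 9 introns 4 of 29 (13.8%, against 8.13%). The 3 members with 10 or more introns, MRPS5, MRPS9 and MRPS27, had none, against 17.3%. The classes held 3 of 46, 4 of 29 and 0 of 3 members with a peak, too few to read a pattern from, and no test was made. MRPS6, whose peak also lies in SLC5A3, was among the 3 in the first class.

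By evolutionary origin, 5 of the 46 members with a bacterial homologue had a peak (10.9%) and 2 of the 32 without one (6.25%), against 9.36% of all protein-coding genes. The 95% Wilson intervals, 4.73 to 23.0% and 1.73 to 20.1%, both hold that share, and no test was made. The genes with an MRPL symbol and no peak were MRPL1, MRPL2, MRPL3, MRPL10, MRPL11, MRPL13 to MRPL24, MRPL27, MRPL28, MRPL30, MRPL32 to MRPL37, MRPL39 to MRPL55, MRPL57 and MRPL58. They include MRPL10 and MRPL11, which build the base of the stalk that carries MRPL12. The genes with an MRPS symbol and no peak were MRPS2, MRPS5, MRPS7, MRPS9 to MRPS12, MRPS14, MRPS16, MRPS17, MRPS18A to MRPS18C, MRPS21 to MRPS24, MRPS26 to MRPS28, MRPS30, MRPS31 and MRPS33 to MRPS36. Among them MRPS18A and MRPS30 encode proteins that sit in the large subunit despite their symbols.

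Other genes of mitochondrial translation were set beside the members. Of 5 mitoribosomal subunits that carry other symbols, PTCD3 (6 peaks, highest log2 fold 4.69) and DAP3 (2 peaks, 3.84) had an SF3B4 peak, while AURKAIP1, CHCHD1 and GADD45GIP1 did not. Translation factors and related proteins had one in 2 of 16 genes, LRPPRC, which stabilises mitochondrial messenger RNAs (5.50), and MTRF1, of the release factor family (4.93). Assembly factors had one in 6 of 25 genes (24.0%), led by METTL17 (5 peaks, 6.65) and by the helicase gene DHX30 (3 peaks, 5.15), followed by RPUSD4 (4.88), ERAL1 (4.88), MTG1 (4.60) and MTERF4 (3.15). The Wilson intervals were 11.8 to 76.9% for the subunits, 3.5 to 36% for the translation factors and 11.5 to 43.4% for the assembly factors. Only that of the translation factors holds the 9.36% of all protein-coding genes. The lists were chosen with earlier results of these data known, and no test was made. An interval that leaves out that share is therefore not evidence of a difference. The median number of introns was 2 in the subunits, 8.5 in the translation factors and 6 in the assembly factors, against 7 over all protein-coding genes. None of these 46 genes had a G4PID peak, but only 0.507% of all protein-coding genes did, so this shows no depletion. The cytosolic ribosomal protein genes, with the same median of 4 introns as the members, had a peak in 66 of 89 cases (74.2%), and their 141 peaks had a median log2 fold of 4.30 against the 3.48 of the members. RNA amount, which was not measured, was not separated from contact in this difference.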

How the data were processed

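The series' 6 libraries (2 each for SF3B4, G4PID and input) are represented by 1 peak list per antibody. cutadapt 3.4, STAR 2.7.0d and the builds hg38 and hg19 are named, per the submitters' processing notes. Peak calling, filtering and the joining of replicates are not described in the labels. Per the file names the coordinates are hg38, the build of GENCODE release 29. The lists, deposited without a header, give for each peak a −log10 p-value and a log2 fold against input by the authors. Both readings rest on the usual order of eCLIP columns and on the ranges of the values. They served to describe or threshold peaks of 1 list and were not compared between lists. Peak lists carry no counts, so depth is unknown.

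A peak was credited to each gene whose span, on the same strand, included the peak midpoint. Introns were numbered in 1 reference transcript per gene (APPRIS principal, then basic, then longest coding sequence). Distances count the last intron base as 1. No genome sequence was used. Intron sequence came from 206694 GENCODE transcripts placed by their exon coordinates (0 bases disagreed), so 71 of the 334 member intron ends could be searched. Assignment to genes and introns was tested on simulated peaks. No test was made between gene lists, and Wilson intervals cover counting error only. The text names every member with a peak. The members and the gene lists were chosen with earlier results of these data known. Computations used Python 3.11.15, numpy 2.4.6, scipy 1.17.1 and matplotlib 3.10.9.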

Additional observations from a re-analysis of the deposited data

How the results depend on the processing

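Peak thresholds moved the counts more than any rule of assignment. With a log2 fold of at least 4 the share of mitochondrial ribosomal protein genes with an SF3B4 peak fell to 1.28% and the introns with a peak to 1, and the 1 peak left, in MRPL4, lay 10 to 60 nt upstream of an acceptor (100%). With a −log10 p of at least 10 the share was 3.85% and the introns with a peak were 3. In the latter setting 2 of 4 peaks lay 10 to 60 nt upstream of an acceptor. Counting any overlap of peak and gene, using only symbols with digits and at most 1 letter or only genes with an intron gave 7 of 78 again. A window of 0 to 100 nt, acceptors of the reference transcript alone and merging peaks within 20 nt each gave 7 of 10 peaks near an acceptor. The longest basic transcript as reference gave 8 introns with a median of 1041 nt. The count of G4PID peaks was 0 under each of its 4 alternatives. The acceptors of all annotated transcripts were added as an alternative after seeing the data. No paired analysis was possible because the lists hold no value per library, and for the same reason no replicate could be left out. Read depth limits every count of 0, and its size is unknown here.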

Other observations

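Peaks of neighbouring genes lay within 1000 nt of 4 members that had none of their own. In MRPL37 an SF3B4 peak on the opposite strand (log2 fold 4.05, chromosome 1, 54184247 to 54184320) lay in CYB5RL, which overlaps the gene. A second gene model, AL357673.1, also spans that position on the strand of CYB5RL. Peaks of FAU, a cytosolic ribosomal protein gene next to MRPL49 (4.05), and of TCP1, a chaperonin subunit gene next to MRPL18 (3.47), lay just outside those members on the opposite strand. MRPS34 was flanked by peaks of NME3 on its own strand (3.08) and EME2 on the other (3.34). Of 75 pseudogenes with an MRPL or MRPS symbol, 0 held an SF3B4 or a G4PID peak. The share over all pseudogenes was not computed, so this count shows nothing particular to these.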
